A study of Mus musculus with 6 samples.

Results

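The genes of 10 enzymes that make or use nicotinamide adenine dinucleotide (NAD) are described here in the left ventricle of C57BL/6J mice that were 12 months old. They are Nmrk1, Nmrk2, Nampt, Nmnat1, Nmnat3, Nadk, Cd38, Parp1, Sirt1 and Sirt3. These 10 genes were taken by symbol from a table of 52550 genes, and each symbol stood on 1 row. The study compared 3 libraries labelled wild-type (WT) with 3 whose genotype label is PGC1alpha overexpression (PKI), all of the same strain and age. Ppargc1a encodes PGC-1α, which coactivates the transcription of genes for mitochondria and oxidative metabolism. The promoter, construct and cell type behind the overexpression, and the sex of the mice, were not stated in the labels. The labels do not say that each library came from a separate animal, so the spread between libraries may be technical. The list was chosen on earlier results of these data, among them the FPKM differences between the PKI-labelled and WT libraries, so those differences are given as a description of these genes.

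NAD carries electrons between metabolic reactions and is also consumed as a substrate. Most tissues rebuild it from nicotinamide, which Nampt turns into nicotinamide mononucleotide, while the kinases Nmrk1 and Nmrk2 make the same mononucleotide from nicotinamide riboside. The adenylyl transferases of the Nmnat family then complete NAD, and NAD kinases phosphorylate it to NADP. Sirtuins, poly(ADP-ribose) polymerases and the glycohydrolase Cd38 break NAD down and release nicotinamide. In heart muscle Nampt is known as the main route of salvage, and Nmrk2 is known as a muscle kinase that is induced in stressed hearts.

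The deposited unit is FPKM (fragment counts divided by transcript length and by the mapped total), so levels can be compared between genes per length. The depth of the libraries is unknown. Transcripts of the mitochondrial genome and their nuclear copies took 81.8% to 82.3% of all FPKM in WT against 78.0% to 78.2% in PKI-labelled libraries. Beside this, the median log2 change of the 9907 tested genes was 0.21, and the part of the mitochondrial share in it was not tested. The changes are therefore also given after median-of-ratios scaling, with WT size factors of 0.898 to 0.922 and PKI size factors of 1.10 to 1.13, after which the median was −0.02. Log2 changes are on log2(FPKM + 1), and a gene was called at an adjusted p under 0.05 (limma, Benjamini-Hochberg over all tested genes). Ppargc1a itself was not higher in PKI-labelled libraries, with 14.2, 12.8 and 12.4 FPKM in WT against 11.6, 11.8 and 11.4 in PKI-labelled libraries (log2 −0.16, SE 0.07, limma adjusted p = 0.0967; −0.44 after scaling, adjusted p = 0.00521). Every direction given is that of the PKI-labelled libraries relative to the WT-labelled ones.

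The ventricles labelled PKI held about 10.8 times the Nmrk2 RNA of the WT ventricles, while Nampt, the most abundant of the 10 genes, did not rise. Nmnat3 was 1.35-fold lower. Cd38 and Sirt1 were 1.45-fold and 1.42-fold higher as deposited, by less and without a call after scaling. Nmnat1, Nadk, Parp1 and Sirt3 were not called in either form. Of the 9 members with a mean of at least 1 FPKM, 3 were called higher and 1 lower, beside 39.4% of all tested genes called (36.4% higher and 2.96% lower). After scaling 1 was called higher and 2 lower, beside 17% of all tested genes (7.82% higher and 9.18% lower). These shares are printed for orientation only, because the same contrast stood behind the choice of the list.

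**Figure D1:**
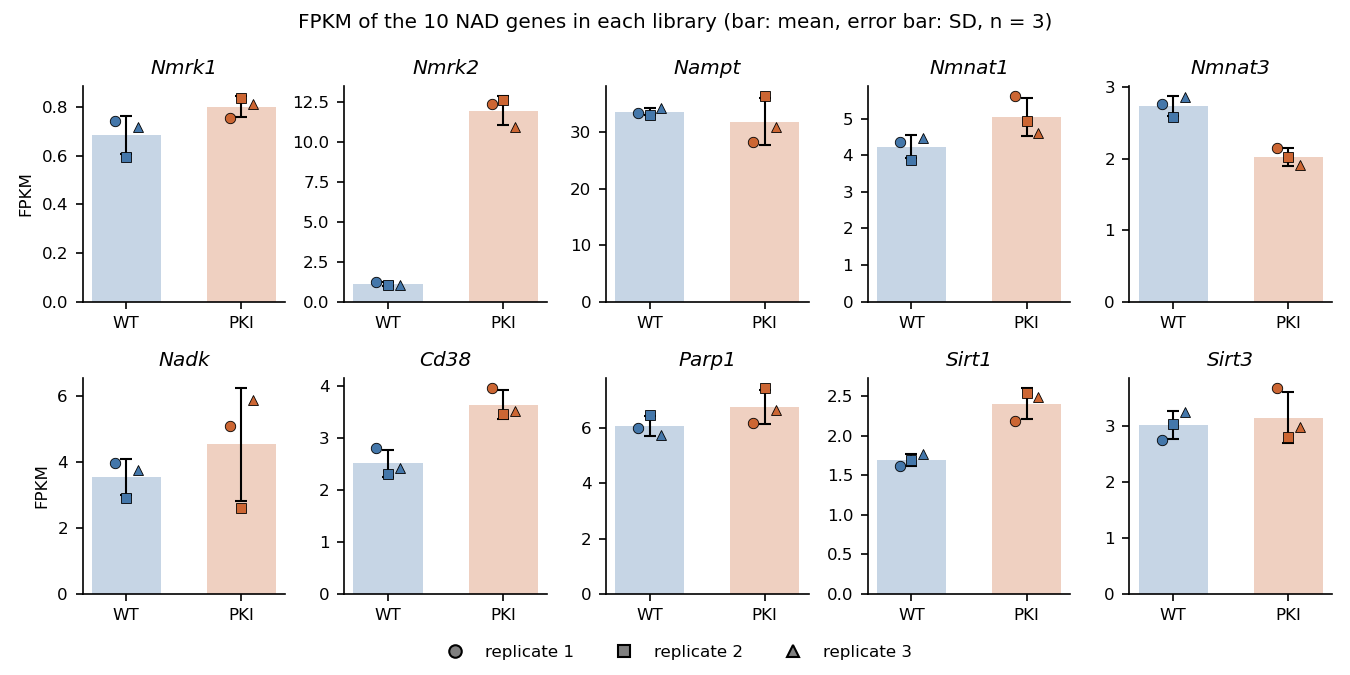
FPKM of each of the 10 genes (vertical axes from 0, a separate scale for each gene) in the 3 WT libraries and the 3 PKI-labelled libraries. Bars are means, error bars SD and symbols single libraries. Nmrk2 stands at 1.02 to 1.25 in WT against 10.9 to 12.6 in PKI-labelled libraries, Nmnat3 lies lower in all 3 PKI-labelled libraries, and the groups overlap for Nampt, Nadk, Parp1 and Sirt3.

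In WT ventricles the 10 genes spanned from 0.684 ± 0.0782 FPKM for Nmrk1 to 33.6 ± 0.607 for Nampt (SD, n = 3 each). Parp1 came next to Nampt at 6.09 ± 0.365, and its 3 values lay apart from those of both neighbours in the order. Nmnat1, Nadk, Sirt3, Nmnat3 and Cd38 followed with means from 4.24 down to 2.51, and each overlapped the next in its library values. Sirt1 at 1.69 ± 0.0773, Nmrk2 at 1.11 ± 0.127 and Nmrk1 closed the order, without overlap between them. In PKI-labelled libraries, Nmrk2 moved from the ninth to the second place, at 12.0 ± 0.916 FPKM, above every Parp1 value and below every Nampt value. Nmnat3 moved from the sixth to the ninth place, at 2.02 ± 0.12, below every Sirt1 value.

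Nmrk2 (ENSMUSG00000004939, minus strand of chromosome 10 from 81198170 to 81202051 in GRCm38) encodes the nicotinamide riboside kinase of muscle. Its FPKM were 1.25, 1.05 and 1.02 in WT against 12.4, 12.6 and 10.9 in PKI-labelled libraries. The lowest value labelled PKI was far above the highest WT value, and the values within each group lay close together. The log2 change was 2.62 (SE 0.08, 95% interval 2.42 to 2.82, limma adjusted p = 5.87e-05), with the smallest p of all tested genes. After scaling it was 2.40 (SE 0.08), and the fold was 8.78. The same contrast stood behind the choice of the list, so this p and its rank are a description only. In bulk tissue, a change in the number of cells of a type and a change in RNA per cell cannot be told apart. The library kit does not mark strand, and the antisense gene Atcayos shares 270 exonic bases with Nmrk2, 14.6% of its exonic sequence. Atcayos stood at 8.92, 9.12 and 8.48 FPKM in WT against at 8.01, 8.18 and 7.65 in PKI-labelled libraries. Atcayos thus stood above Nmrk2 in all 3 WT libraries and below it in all 3 PKI-labelled libraries. How the authors divided shared reads was not stated in the labels. The low WT level of Nmrk2 is therefore uncertain by reads that could belong to either gene. The fold, the place in the WT order and the ratios that rest on that level share this uncertainty. The part of shared reads in them was not tested.

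Nmrk1 (ENSMUSG00000037847, plus strand of chromosome 19 from 18631950 to 18652428) encodes the kinase with the same reaction found in most tissues. Its FPKM were 0.740, 0.595 and 0.718 in WT against 0.752, 0.836 and 0.813 in PKI-labelled libraries. All 3 PKI-labelled libraries lay above WT as deposited, by 1.17-fold, but after scaling the groups overlapped and the fold was 0.951. With a mean of 0.742 FPKM, Nmrk1 was under the level for testing. In a fit without that filter its log2 change was 0.10 (limma adjusted p = 0.432), and with scaling as well it was −0.03 (adjusted p = 0.839).

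The ratio of the 2 kinases within a library does not depend on how the library is scaled. There were 1.69, 1.76 and 1.42 FPKM of Nmrk2 for each FPKM of Nmrk1 in WT, and 16.4, 15.1 and 13.4 in PKI-labelled libraries. The mean ratio was 1.63 ± 0.178 and 15.0 ± 1.51 (SD, n = 3 each), 9.21-fold apart. In these ventricles the muscle kinase thus went from slightly above its relative to more than 10 times its level. These ratios were chosen after the values had been seen, and they carry no test.

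The sequences upstream of both kinase genes are shown because the genes encode the same activity and differed in their levels as described. Both are RefSeq promoter windows of GRCm38.p6, cut at the start of the GENCODE gene and written on the strand of the gene. The Nmrk2 stretch is chr10:81202052-81202287 (minus strand, 236 bases) and the Nmrk1 stretch is chr19:18631766-18631949 (plus strand, 184 bases). Capitals mark matches to the motifs searched.
Nmrk2: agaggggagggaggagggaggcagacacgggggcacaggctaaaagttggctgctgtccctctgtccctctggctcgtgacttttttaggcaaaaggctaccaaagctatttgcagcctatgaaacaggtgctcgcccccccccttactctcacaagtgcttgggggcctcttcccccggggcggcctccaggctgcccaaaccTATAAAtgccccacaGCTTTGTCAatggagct
Nmrk1: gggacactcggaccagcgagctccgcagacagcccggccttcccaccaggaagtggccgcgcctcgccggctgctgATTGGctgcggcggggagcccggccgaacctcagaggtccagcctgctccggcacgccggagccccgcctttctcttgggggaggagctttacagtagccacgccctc

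The Nmrk2 stretch had 58.5% G and C with 5 CpG sites (0.248 of the number its base composition gives). The Nmrk1 stretch had 71.2% with 17 CpG sites (0.733). The Nmrk2 stretch held the letters TATAAA, the core of a TATA box, starting 32 bases before the GENCODE start, and no CCAAT. In the Nmrk1 stretch the reverse complement of CCAAT began 108 bases before the start, and TATAAA was not found. The letters TATAAA, on either strand, stood in 13.6% of all 32851 promoter windows of 300 bases, and CCAAT in 37.4%. Both of these motifs were added after the sequences had been seen. Of the other motifs searched, the Nmrk2 stretch matched the antioxidant response element TGANNNNGC, on the opposite strand, which 41.3% of all windows held. The full Nmrk1 window held it as well, past the GENCODE start but 44 bases before the RefSeq start. In the full windows of both genes no match was found, on either strand, to AP-1 (TGANTCA, in 7.81% of all windows), the cAMP element (TGACGTCA, 1.79%), the E-box (CACGTG, 7.15%) or the ERR site (AAGGTCA, 4.72%). None was found either to the M-CAT element (CATTCC, 14.7%), the ATF4 element (TGATGNAA, 3.97%), CArG (1.63%) or MEF2 (0.557%). The letters TGTTCT (19.0%), which are only a part of the steroid receptor site, were not found either. A match or its absence describes these letters only.

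The genes whose profile lay nearest to that of Nmrk2 included Sprr1a, Ankrd1, Acta1 and Timp1. Likeness was the Euclidean distance over the 6 libraries between log2(FPKM + 1) values, each gene set to its own WT mean, and their 4 distances ran from 0.450 to 0.678. Sprr1a, a cornified envelope protein that stressed cardiomyocytes express, was at 0.170, 0 and 0 FPKM in WT against 7.68, 4.80 and 5.17 in PKI-labelled libraries. Ankrd1, a stretch-responsive sarcomere protein, went from 517 ± 58.9 to 2606 ± 175 FPKM, and Acta1, skeletal actin, from 70.7 ± 27.5 to 433 ± 33.3 (SD, n = 3 each). Timp1, a metalloproteinase inhibitor, stood at 0.624 ± 0.389 and 10.6 ± 2.15 FPKM (SD, n = 3 each). The distances rest on the same contrast and are a description only. The pseudocount of 1 compresses the differences of low genes such as Sprr1a, and Sprr1a and Timp1, with WT values all under 1 FPKM, reached the level for testing only through the PKI-labelled libraries.

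Nampt (ENSMUSG00000020572, plus strand of chromosome 12 from 32819545 to 32853349) encodes the rate-limiting enzyme of nicotinamide salvage. Its FPKM were 33.4, 33.1 and 34.3 in WT against 28.2, 36.4 and 31.0 in PKI-labelled libraries. The WT values were close to each other, the values labelled PKI were wider, and the groups overlapped. The log2 change was −0.08 (SE 0.09, 95% interval −0.301 to 0.139, limma adjusted p = 0.502). After scaling all 3 PKI-labelled libraries lay below WT, at 25.3 to 32.1 against 36.2 to 38.2. The log2 change was then −0.37 (SE 0.09, limma adjusted p = 0.0319). Of the 15 alternatives to the fit as deposited, only this scaling called Nampt (adjusted p from 0.0319 to 0.995). Quantile normalisation gave −0.32 (adjusted p = 0.0645) and scaling to the non-mitochondrial FPKM sum −0.29 (adjusted p = 0.0926). Of the median-of-ratios scaled fits without 1 library, only that without PKI replicate 2 kept the call (adjusted p = 0.0151). Without any of the other libraries it was lost (log2 −0.46 to −0.29 over the 6 fits, adjusted p up to 0.105). In a scaled fit of all 6 libraries without the filter on level, Nampt was not called either (log2 −0.37, limma adjusted p = 0.0790). Nampt RNA exceeded Nmrk2 RNA in all 6 libraries. The level of Nmrk2 was 0.0330 ± 0.00403 of that of Nampt in WT against 0.379 ± 0.0510 in PKI-labelled libraries (SD, n = 3 each).

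**Figure D2:**
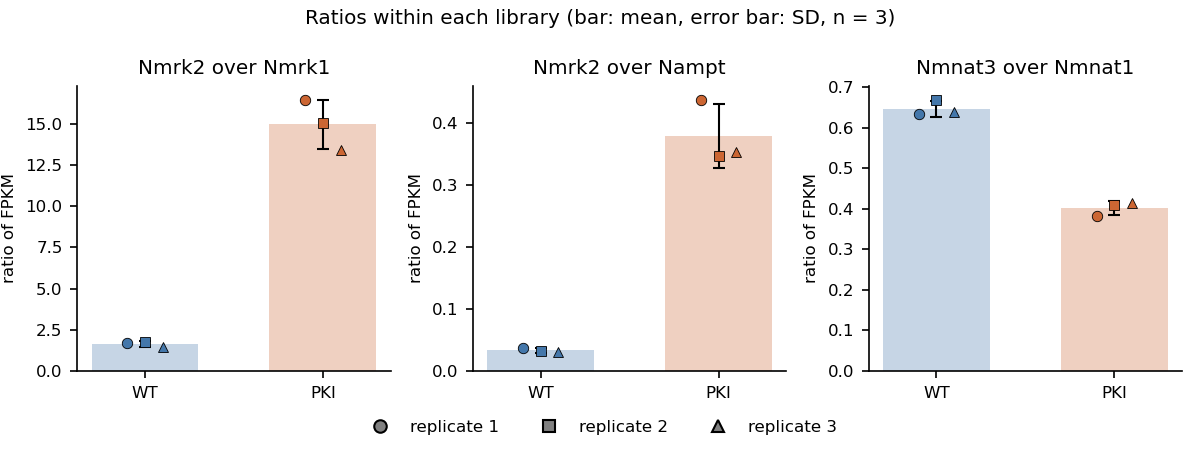
Ratio of the FPKM of paired genes within each library (vertical axes from 0), for Nmrk2 over Nmrk1, Nmrk2 over Nampt and Nmnat3 over Nmnat1. Bars are means, error bars SD and symbols single libraries. The ratios were chosen after the values had been seen. The groups do not overlap in the 3 ratios shown: the first rises from 1.63 to 15.0, the second from 0.0330 to 0.379, and the third is 0.647 in WT and 0.402 in PKI-labelled libraries.

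Nmnat3 (ENSMUSG00000032456, plus strand of chromosome 9 from 98287435 to 98420438) encodes the adenylyltransferase described in mitochondria. Its FPKM were 2.76, 2.59 and 2.86 in WT against 2.15, 2.02 and 1.91 in PKI-labelled libraries. All 3 PKI-labelled libraries lay below WT, while the median of all tested genes was above 0. Its log2 change was −0.31 (SE 0.07, limma adjusted p = 0.0154) and −0.51 (SE 0.07, adjusted p = 0.00387) after scaling. Without WT replicate 3 or PKI replicate 3 the call was lost at nearly the same size (log2 −0.28 and −0.28, adjusted p = 0.0544 and 0.0538), with adjusted p of 0.00377 to 0.0544 over 14 alternatives.

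Nmnat1 (ENSMUSG00000028992, minus strand of chromosome 4 from 149467572 to 149485202) encodes the nuclear adenylyltransferase. Its FPKM were 4.36, 3.87 and 4.48 in WT against 5.61, 4.93 and 4.60 in PKI-labelled libraries. The groups were separate as deposited and overlapped after scaling. The log2 change of 0.21 (SE 0.09, limma adjusted p = 0.0968) equalled the median of all tested genes to 2 decimals and turned to −0.04 after scaling. The level of Nmnat3 relative to Nmnat1 was 0.634, 0.670 and 0.639 in WT against 0.382, 0.409 and 0.414 in PKI-labelled libraries, a 1.61-fold lower mean. This ratio is free of scaling, and its groups did not overlap. Like the ratio of the kinases, it was chosen after the values had been seen and carries no test.

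Nadk (ENSMUSG00000029063, plus strand of chromosome 4 from 155562378 to 155591001) encodes the cytosolic NAD kinase. Its FPKM were 3.97, 2.91 and 3.76 in WT against 5.10, 2.62 and 5.89 in PKI-labelled libraries. PKI replicate 2 held the lowest value of the 6 libraries while the other two labelled PKI held the highest. For Nadk this gave a log2 change of 0.24 (SE 0.23, 95% interval −0.314 to 0.792, limma adjusted p = 0.432) and 0.00 after scaling. Without PKI replicate 2 it was 0.52 (adjusted p = 0.0288, and 0.0288 to 0.997 over 14 alternatives).

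Cd38 (ENSMUSG00000029084, plus strand of chromosome 5 from 43868553 to 43912375) encodes an NAD glycohydrolase of the cell surface that immune and endothelial cells express. Its FPKM were 2.81, 2.31 and 2.42 in WT against 3.96, 3.47 and 3.52 in PKI-labelled libraries, and the groups were separate. The log2 change was 0.40 (SE 0.08, limma adjusted p = 0.0110). After scaling the groups still did not overlap, but the log2 change was 0.18 (SE 0.08, 95% interval −0.0108 to 0.372, adjusted p = 0.182; 0.0107 to 0.204 over 14 alternatives).

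Macrophage markers moved beside Cd38: 7 of 8 were called higher (6 after scaling), and their summed level was 68.8 to 107 FPKM in WT against 208 to 225 in PKI-labelled libraries. Of 6 endothelial markers, 2 were called higher as deposited and 0 higher and 1 lower after scaling, with sums of 110 to 118 and 118 to 133 FPKM. Lymphocyte markers were too low for testing, with sums of 0.182 to 0.645 and 0.275 to 0.602 FPKM, and Cd3e, Cd8a, Ms4a1 and Nkg7 at 0 in at least 1 library. Fibroblast markers were called higher in 6 of 7 (also 6 after scaling), with sums of 85.2 to 126 and 253 to 330 FPKM. Pdgfra of that list was not called in either form, and its groups overlapped (log2 0.42, and 0.21 after scaling). Over all tested genes 36.4% were called higher (7.82% after scaling), and the endothelial count lay near that share. The part of these cell types in the level of Cd38 was not tested.

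For Nmrk2, which skeletal muscle also expresses, 1 of 8 skeletal muscle markers reached the level for testing, Mybpc2, and it was called higher, also after scaling. Myh4 was listed at 0 in all 6 libraries, and Myh1, Myh2, Tnnt3 and Actn3 were at 0 in at least 1. Mylpf was lower in all 3 PKI-labelled libraries (0.413 ± 0.0893 FPKM in WT, 0.159 ± 0.110 in the others), Tnnt3 was higher in all 3 (0.0494 ± 0.0444 and 0.318 ± 0.0624), and Tnni2 overlapped between the groups (SD, n = 3 each). The sum of the list was 1.93 to 2.66 FPKM in WT against 7.17 to 10.8 in PKI-labelled libraries, most of it from Mybpc2 (1.46 ± 0.251 and 8.50 ± 1.89; SD, n = 3 each). All 6 cardiomyocyte markers were present at levels for testing, with sums of 3841 to 4054 FPKM in WT against 3620 to 3938 in PKI-labelled libraries, and 1 called higher and 2 lower (0 and 5 after scaling). Of 5 atrial markers 1 was called higher (Nppa, also after scaling), and the sums were 270 to 478 and 666 to 1497 FPKM. Most of these sums came from Nppa, at 261 ± 69 FPKM in WT and 1088 ± 413 in PKI-labelled libraries (SD, n = 3 each). The other 4 were not called, and their log2 changes were all below 0, at −1.49 for Myl4, −1.62 for Myl7, −1.72 for Sln and −0.56 for Bmp10, with overlapping groups. Myl7 was at 74.35, 40.49 and 91.3 FPKM in WT against 6.612, 14.79 and 81.89 in PKI-labelled libraries. Myl4, Myl7 and Sln were each below every WT value in PKI replicates 1 and 2, but not in PKI replicate 3. Of 4 smooth muscle markers 2 were called higher (1 after scaling), with sums of 34.8 to 52.1 and 66.7 to 113 FPKM. Beside these counts, 36.4% of all tested genes were called higher and 2.96% lower (7.82% and 9.18% after scaling). The part of other cell types in the level of Nmrk2 was not tested.

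Parp1 (ENSMUSG00000026496, plus strand of chromosome 1 from 180568924 to 180601254) encodes the main poly(ADP-ribose) polymerase of the DNA damage response. Its FPKM were 6.03, 6.48 and 5.75 in WT against 6.21, 7.45 and 6.67 in PKI-labelled libraries, and the groups overlapped. In the fit, Parp1 had a log2 change of 0.13 (SE 0.08, 95% interval −0.0622 to 0.327, limma adjusted p = 0.228) and turned to −0.13 after scaling.

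Sirt1 (ENSMUSG00000020063, minus strand of chromosome 10 from 63319005 to 63381704) encodes a nuclear NAD-dependent deacetylase known to act on PGC-1α. Its FPKM were 1.61, 1.69 and 1.77 in WT against 2.18, 2.54 and 2.49 in PKI-labelled libraries, without overlap. The log2 change was 0.34 (SE 0.07, limma adjusted p = 0.0129). After scaling the groups overlapped and it was 0.14 (SE 0.07, adjusted p = 0.252; 0.0116 to 0.303 over 14 alternatives).

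Sirt3 (ENSMUSG00000025486, minus strand of chromosome 7 from 140863666 to 140882309) encodes the main deacetylase of mitochondria. Its FPKM were 2.76, 3.04 and 3.26 in WT against 3.68, 2.80 and 2.98 in PKI-labelled libraries. PKI replicate 1 was the highest of the 6 and the rest were mixed between the groups. In the fit, Sirt3 had a log2 change of 0.04 (SE 0.10, 95% interval −0.189 to 0.276, limma adjusted p = 0.739) and turned to −0.18 after scaling. Its exons share 418 bases with Ric8a and 342 with Psmd13 on the opposite strand, 7.0% and 5.73% of its exonic sequence, so its values are uncertain by reads that could belong to either gene.

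**Figure D3:**
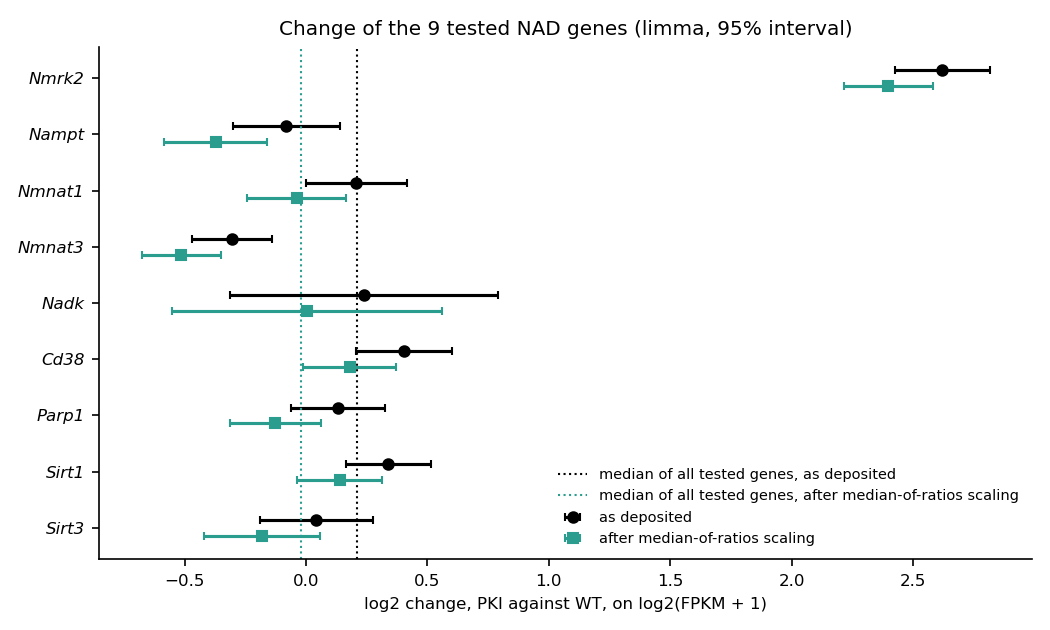
Log2 change on log2(FPKM + 1), PKI-labelled libraries against WT, of the 9 tested genes. Points are limma estimates with 95% intervals, circles as deposited and squares after median-of-ratios scaling, and dotted lines are the medians of all tested genes (0.21 and −0.02). Nmrk2 stands alone at 2.62 and 2.40, Nmnat3 lies below 0 in both forms, and Nampt lies below 0 with its whole interval after scaling only.

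Over the 10 genes, all 3 PKI-labelled libraries lay above WT for 5, below for 1 (Nmnat3), and overlapped for 4. Among the 9 tested genes 4 lay above and 1 below, beside 51.3% and 4.53% of all tested genes. After scaling, Nmrk2 and Cd38 lay above and Nampt and Nmnat3 below, 2 and 2 of the 9 tested, beside 16.6% and 20.7% of all tested genes. The median log2 change of the 9 tested members was 0.21, the same to 2 decimals as that of all tested genes.

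The wider pathway was taken from a list of 65 genes that includes the 10. Of the other 55 genes, 34 reached the level for testing, and 11 were called higher and 2 lower (38.2% called, beside 39.4% of all tested genes). After scaling 3 were higher and 5 lower (23.5%, beside 17%). The medians of the 34 were 0.22 as deposited and −0.01 after scaling, close to those of all tested genes. The called genes lay on both sides, and enzymes of the same step did not all move one way.

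Among precursor handling genes, Nt5e, which encodes the ectoenzyme CD73 that forms nucleosides outside the cell, rose from 1.08 ± 0.170 to 2.30 ± 0.304 FPKM (2.12-fold, log2 0.66, limma adjusted p = 0.00370) and remained called after scaling (log2 0.48, adjusted p = 0.0179). Pnp, a nucleoside phosphorylase that can split nicotinamide riboside, was called as deposited (1.63-fold, log2 0.50) and not after scaling (log2 0.29). Synthesis of NAD from tryptophan was barely represented: 0 of its 9 genes reached a mean of 1 FPKM over the 6 libraries, with means from 0.00637 (Kynu) to 0.744 (Afmid). In synthesis from nicotinic acid, Naprt stood at 3.08 ± 0.274 and 3.26 ± 0.501 FPKM without a call (SD, n = 3 each; log2 0.06, and −0.17 after scaling), and Nadsyn1 was under the level for testing.

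Nadk2, the mitochondrial NAD kinase, fell from 11.02 ± 0.676 to 7.48 ± 0.868 FPKM (log2 −0.51, SE 0.09, limma adjusted p = 0.00688; −0.78 after scaling, adjusted p = 0.00196). Its values were 11.1, 10.3 and 11.7 in WT against 7.28, 8.43 and 6.73 in PKI-labelled libraries, with every library labelled PKI below WT. In WT it stood about 3 times above Nadk, with ratios of 2.79, 3.55 and 3.10. In PKI-labelled libraries the ratios were 1.43, 3.22 and 1.14, and the second of them, raised by the low Nadk value of PKI replicate 2, overlapped WT. Slc25a51, the carrier of NAD into mitochondria, moved the other way, with 2.16, 1.81 and 4.03 FPKM in WT against 6.68, 5.81 and 5.59 in PKI-labelled libraries. WT replicate 3 was about 2 times the other WT values but still under all values labelled PKI. The log2 change of Slc25a51 was 0.98 (SE 0.21, limma adjusted p = 0.0117), and after scaling it was 0.75 and missed the threshold (adjusted p = 0.0557; 0.00391 to 0.0565 over 14 alternatives).

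Of the 15 listed genes of the ADP-ribose polymerase family, 12 were tested, and 6 were called higher and 0 lower (2 and 0 after scaling; 36.4% and 7.82% of all tested genes were higher). Parp3, an enzyme of DNA break repair, rose from 6.10 ± 0.713 to 11.1 ± 0.460 FPKM (1.82-fold, log2 0.77, limma adjusted p = 0.00143; 0.51 after scaling, adjusted p = 0.00973). Parp9, an interferon-inducible member, rose from 1.54 ± 0.141 to 2.90 ± 0.415 (1.88-fold, log2 0.61, adjusted p = 0.00433; 0.41 after scaling, adjusted p = 0.0217). Parp14 and Parp4 were called as deposited (1.43-fold and 1.50-fold), and neither after scaling (log2 0.14 and 0.23). The tankyrase genes Tnks and Tnks2 were also called as deposited only (log2 0.41 and 0.27, and 0.18 and 0.02 after scaling). Parp1 was thus not among the members of its family that were called.

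Of 7 sirtuin genes, 5 were tested, and Sirt1 and Sirt2 were called higher as deposited and 0 after scaling, beside 36.4% and 7.82% of all tested genes called higher. Sirt2, the mainly cytosolic deacetylase, went from 7.33 ± 0.290 to 9.43 ± 0.847 FPKM (SD, n = 3 each; log2 0.32, and 0.05 after scaling). The mitochondrial Sirt4 and Sirt5 were not called (log2 0.21 and 0.07, and −0.01 and −0.16 after scaling). Of 4 mono-ADP-ribosyltransferase genes, Art3 fell from 16.2 ± 0.941 to 13.0 ± 0.387 FPKM (log2 −0.29, limma adjusted p = 0.0156; −0.57 after scaling). Art3 lost the call without PKI replicate 3 (adjusted p = 0.0516, and 0.00206 to 0.0516 over 15 alternatives). Art4 of the same group was not called as deposited (log2 −0.23) but was lower after scaling (−0.48, adjusted p = 0.0193). Among enzymes that remove ADP-ribose, Parg was called higher as deposited only (log2 0.24, 0.06 after scaling), and Macrod1 was not called (log2 −0.19) but was lower after scaling (−0.48). The calls of Pnp, Tnks2, Sirt2 and Parg did not hold without certain libraries: Pnp lost its call without WT replicate 2 or 3 or PKI replicate 1, and Parg without any 1 library except PKI replicate 2. Sirt2 lost it without any 1 library except WT replicate 1 and PKI replicate 2, and Tnks2 without any except WT replicate 1 and PKI replicate 1. Pnp, Tnks, Tnks2, Sirt2 and Parg, the genes called after scaling alone (Art4, Macrod1 and Nnt), and Naprt, Nadsyn1, Kynu, Afmid, Sirt4 and Sirt5 were chosen for naming after their values had been seen.

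**Figure D4:**
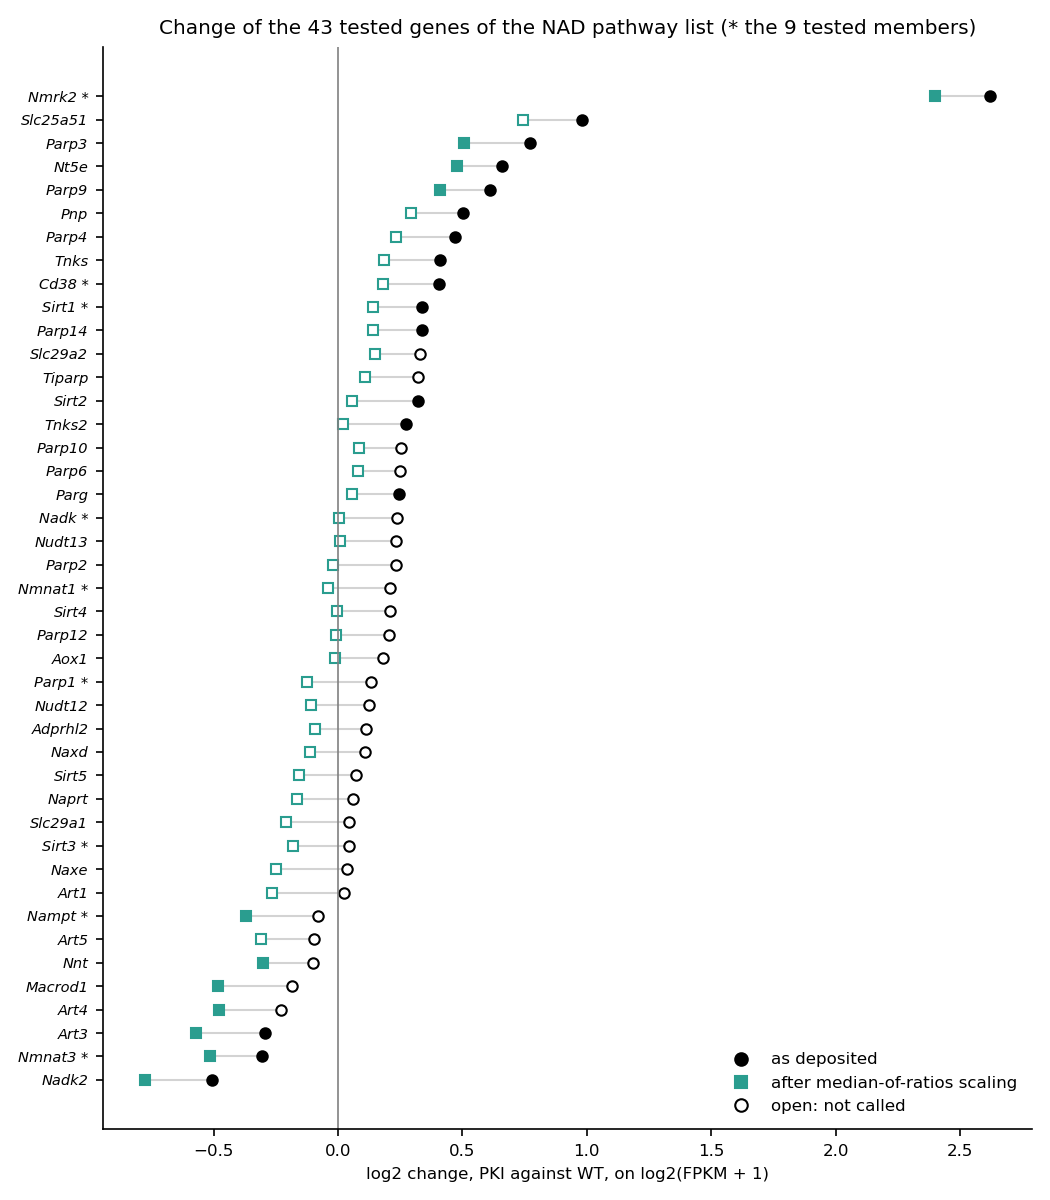
Log2 change on log2(FPKM + 1), PKI-labelled libraries against WT, of the 43 tested genes of the NAD pathway list, ordered by the change as deposited. Circles are values as deposited and squares values after median-of-ratios scaling, filled where the gene was called and open where it was not, and stars mark the 9 tested members. Nmrk2 is far to the right of the next gene, Slc25a51 (2.62 and 0.98), and Nadk2 and Nmnat3 are at the left end.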

How the data were processed

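Gene expression was measured in 6 libraries. Per the labels' protocols, Trizol was used to extract RNA from frozen hearts, and the Illumina TruSeq RNA kit was given 1 µg of it. The authors deposited FPKM per gene and library. CASAVA, Bowtie 0.12.2 and build mm9 are named, with no role, per the submitters' processing notes; the program and annotation behind the FPKM are not stated there. The table with gene symbols was read; the other deposited table repeats its values. Low values did not share a common step (3.18% of 943 low genes at the most common ratio of 2 libraries), so reads could not be recovered and depth is unknown. Positions come from GENCODE M21 (GRCm38) by gene identifier, 52403 of 52550 matching. Which build the authors' values rest on is unsettled, and no coordinate was converted.

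Sample titles gave the groups. Genes averaging 1 FPKM or more over the 6 libraries were tested on log2(FPKM + 1) by limma 3.58.1 (R 4.3.3; variance trend, no block, two-sided), adjusted over all 9907 tested genes; the fit was tested on simulated data. Fold values are ratios of mean FPKM. As alternatives, the pseudocount was set to 0.1 or 0.5, the filter was dropped or raised to 5 FPKM, 3 other scalings were used, the variance trend was dropped, a replicate block was added, and each library was left out in turn. Scaled fits without each library, the fit of Nmrk1 without a filter, and the scaled fit without a filter were added after seeing the data. Members, pathway list and marker lists were chosen with earlier results of these data known. The naming rule outside the members took the called genes of the pathway list, up to 6 in each direction by smallest p, and the 5 nearest profiles to Nmrk2, of which 1 is not reported here; other pathway genes named were chosen after seeing their values.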

Additional observations from a re-analysis of the deposited data

How the results depend on the processing

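Nmrk2 was called higher under all 15 alternatives run, with log2 changes from 2.39 to 3.32, and Nadk2 lower and Parp3 higher under all 15 of theirs. The 3902 genes called over the whole table became 1925 at a minimum mean of 5 FPKM (3935 tested), 1684 with median-of-ratios scaling (775 higher, 909 lower), 1622 scaled to the non-mitochondrial FPKM sum, and 1515 with quantile normalisation (753 higher, 762 lower). Leaving out 1 library gave 2344 to 3425, with 2344 without WT replicate 3 and 2498 without PKI replicate 3. In the same order of settings, the 4 members called became 1 of 3 tested, 3, 2 and 2, and 3 to 5 without 1 library. The 17 pathway genes called became 6 of 14 tested, 11, 10 and 10, and 13 to 19 without 1 library. Under scaling, 2 or 3 members were called without 1 library (3 with all).

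Small changes turned with the scaling, none of them called in either form. With median-of-ratios scaling Nmnat1 was at −0.038, Parp1 at −0.13 and Sirt3 at −0.18. With quantile normalisation Nmnat1 was at −0.032, Nadk at −0.0018, Parp1 at −0.11 and Sirt3 at −0.19. Scaled to the non-mitochondrial sum, Parp1 was at −0.052 and Sirt3 at −0.12. Sirt3 also turned without WT replicate 1 (−0.0045) and without PKI replicate 1 (−0.045), with a range of −0.045 to 0.10 over the libraries left out. Nmrk1 without a filter turned from 0.10 to −0.030 with scaling. Deviations of same-numbered libraries correlated at −0.10, 0.0012 and 0.05 across genes, and those of differently numbered libraries at −0.13 to 0.11. With 3 libraries in each group, these correlations cannot exclude a pairing by replicate number. With the replicate block 2849 genes, 4 members and 15 pathway genes were called. Values near 1 FPKM, such as those of Nmrk1 and of Nmrk2 in WT, may carry a large counting error, which cannot be given without depth.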

Other observations

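The mitochondrial transhydrogenase gene Nnt was not called as deposited (log2 −0.10) and was called lower after scaling (log2 −0.30, limma adjusted p = 0.0335). C57BL/6J mice are known to carry a deletion within Nnt, and the gene was still listed at 2.25 ± 0.0760 FPKM in WT against 2.03 ± 0.231 in PKI-labelled libraries (SD, n = 3 each).

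Nnmt, which methylates nicotinamide and so removes it from salvage, was below the level for testing at 0.591, 0.205 and 0.769 FPKM in WT against 0.972, 1.47 and 1.03 in PKI-labelled libraries. All 3 PKI-labelled libraries lay above WT. The surface glycohydrolase gene Bst1, a relative of Cd38, was at 0.119 and 0.205 FPKM on average (WT first), and the neuronal NAD hydrolase gene Sarm1 at 0.0136 and 0.00299. Nnt, Nnmt, Bst1 and Sarm1 were chosen for naming after their values had been seen.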
